A study of Mus musculus with 14 samples.

Results

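Skeletal muscle of mice that overexpress c-Myc in endothelial cells was compared between western diet and control diet across all expressed genes. Libraries were taken by their labelled genotype and diet, which gave 4 OE-WD and 4 OE-CTD libraries, 8 of the 14 in the series. The 6 libraries of CT mice, 3 CT-CTD and 3 CT-WD, served for the test of whether the diet difference in EC-Myc OE differed from that in CT. All mice were FVB/N males. EC-Myc OE mice carried a human c-Myc transgene under a tetracycline-responsive promoter (Tet-O-Myc) and a transactivator driven by the endothelial Cdh5 promoter (Cdh5-tTA). In CT mice, born in the same litters, Tet-O-Myc was present and Cdh5-tTA was not. Overexpression was induced at 4 to 6 weeks of age by taking the mice off doxycycline, and the mice then received control diet (TD.08485) or western diet (TD.88137) for 20 weeks by the labels. The study's text gives different lengths of exposure in its methods and its results. RNA came from soleus and gastrocnemius muscle, and the labels do not say which muscle a library was made from.

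In this model c-Myc is forced only in endothelial cells, the lining of blood vessels, whereas most RNA of a muscle comes from its fibres. Skeletal muscle burns fatty acids and glucose in its mitochondria, and a diet rich in fat is known to shift the genes of both pathways. c-Myc is a transcription factor known for raising genes of ribosome production and cell growth. In RNA of whole muscle, fewer cells of a type and less RNA per cell cannot be told apart.

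The number of counted reads was 25486678, 28519159, 22966288 and 22083340 in OE-CTD 1 to 4 and 25281275, 27115249, 22033140 and 27698046 in OE-WD 1 to 4. Genes of fast muscle fibres were abundant in every library, with Tnnt3, the fast troponin T, at a mean of 10237 FPKM over the 8 OE libraries and Atp2a1, the fast calcium pump, at 9767 FPKM. The endothelial marker Cdh5 had a mean of 26.8 FPKM. The level of mouse Myc is no check of the genotype, since the transgene is human and its reads were not looked at. The library names of OE-WD 1 to 4 all end in the same number, those of OE-CTD 1 to 3 share a different one, and OE-CTD 4 has its own. The labels do not say whether a number stands for an animal, a litter or a cage. The p-values may therefore measure only the spread between these samples, and the number and the diet cannot be told apart. A legend in the study counts libraries unequally by diet, whereas the labels count them unequally by genotype, and the labels were kept as they stand.

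OE-CTD 4 and OE-WD 4 stood apart from the other EC-Myc OE libraries. Genes encoded by mitochondrial DNA took 14.9% of counts in OE-CTD 4 and 14.5% in OE-WD 4, against 11.3% to 12.8% in OE-CTD 1 to 3 and 10.9% to 12.1% in OE-WD 1 to 3. Their TMM scaling factors were 0.888 and 0.899, and those of the other 6 were between 1.02 and 1.07. Each diet group held 1 of these libraries. Results that rest on them are given with and without both, a comparison chosen after the data were seen.

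Zbtb16 rose in EC-Myc OE muscle on western diet and was the only one of 15458 genes tested to change by more than 1.5-fold at an adjusted p-value under 0.05 (0.00647% of genes). Zbtb16 (ENSMUSG00000066687, protein coding, chromosome 9 of GRCm38) encodes the zinc finger transcription factor PLZF, a gene known to respond to glucocorticoids. Its level in CPM, counts scaled to library size with TMM factors, was 40.8, 46.6, 44.1 and 39.3 on control diet (OE-CTD 1 to 4) and 131, 90.3, 89.5 and 89.5 on western diet (OE-WD 1 to 4). The 4 OE-WD libraries were all above the 4 OE-CTD libraries, and OE-WD 1 was the highest. Western diet gave a log2 fold change of 1.23 with a standard error of 0.146 (adjusted p = 0.00559 in edgeR's quasi-likelihood test with Benjamini-Hochberg adjustment). Without OE-WD 1 it was 1.07 (adjusted p = 0.00839 in edgeR). The call was lost without OE-CTD 1 (1.21, adjusted p = 0.0548 in edgeR) and without both libraries numbered 4 (1.25, adjusted p = 0.108 in edgeR), with a fold change of similar size in each. It was also lost in limma on log2(FPKM + 1) with no filter on low values (1.13, adjusted p = 0.130). Over all 23 alternatives the adjusted p was between 1.63e-11 and 0.130, and it was under 0.05 in 20. The 20 include edgeR with no filter, whose calls were given no weight, and fits that left out a CT library and kept every OE library. Leaving out OE-CTD 2, 3 or 4 alone gave an adjusted p of 0.0242, 0.0352 and 0.0464 in edgeR. Leaving out 1 OE-WD library gave 0.00839 to 0.0128. In CT mice Zbtb16 was at 82.1, 79.5 and 98.8 CPM on control diet and at 117, 136 and 181 CPM on western diet, a log2 fold change of 0.74 (unadjusted p = 0.000436 in edgeR). OE-CTD was the group with the lowest levels, below every CT library. The diet difference in EC-Myc OE exceeded that in CT by 0.49 on the log2 scale, which did not pass adjustment (unadjusted p = 0.0392 in edgeR).

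**Figure D1:**
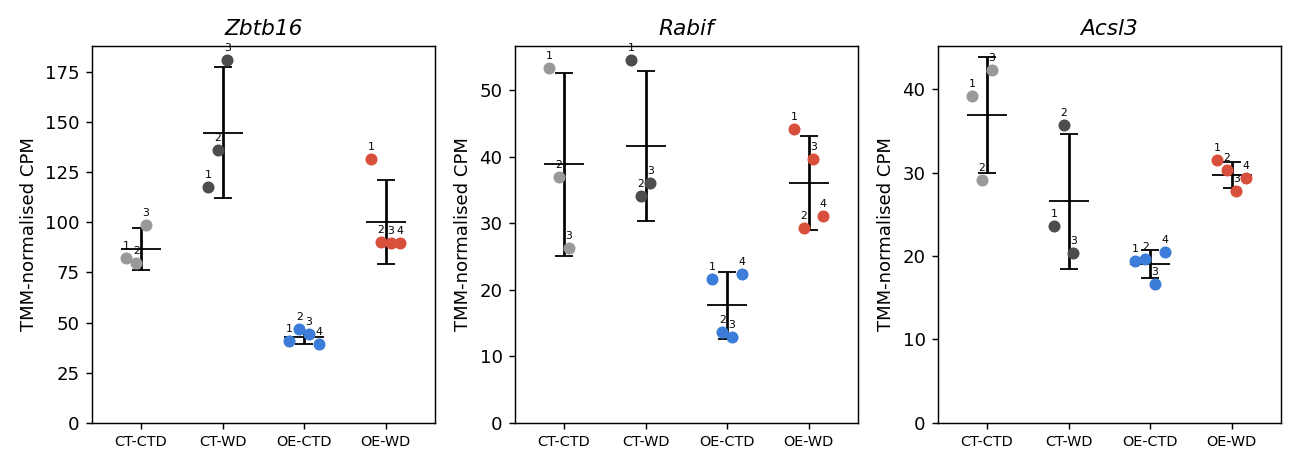
Level of Zbtb16, Rabif and Acsl3 in each of the 14 libraries, in CPM with TMM factors, by group; points are libraries with their replicate number, and bars are the mean ± SD. For each gene the 4 OE-WD libraries lie above the 4 OE-CTD libraries.

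At an unadjusted p-value under 0.05, 212 genes differed by more than 1.5-fold, 106 higher on western diet (0.686% of genes) and 106 lower (0.686%). DESeq2 on the same genes gave 207, 191 of them among the 212. On FPKM, where the tool, the unit and the filter all differed and 11281 genes were tested, limma gave 47 on log2(FPKM + 1), with 24 among the 212, and 87 on log2(FPKM + 0.1), with 56 among them. With no filter on low values limma on log2(FPKM + 1) gave 50. edgeR gave 667 with no filter, a fit that made many false calls on simulated data. At any fold, 650 genes were at this level, 299 of them higher (1.93% of genes) and the rest lower (2.27%). With no difference between the diets, a share of about 0.05 of genes would fall under this p-value. The 650 of 15458 genes did not exceed that share. After Zbtb16 the next smallest adjusted p was 0.9999 in edgeR, so the genes described from here on did not pass adjustment in this test. In a fit of the OE libraries with the replicate number as a block, 15 genes were called, among them Acsl3, BC048679, Rabif and Rrad. The labels do not say that a number pairs libraries. The levels of all 4 OE-WD libraries were above those of all 4 OE-CTD libraries for 285 genes (1.84%) and below them for 345 genes (2.23%).

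Rabif, a guanine nucleotide exchange factor for Rab proteins, was 21.7, 13.7, 12.9 and 22.4 CPM on control diet (OE-CTD 1 to 4) and 44.2, 29.3, 39.7 and 31.1 CPM on western diet (OE-WD 1 to 4). Its log2 fold change was 1.03 (standard error 0.237, unadjusted p = 0.000519 in edgeR). Acsl3, an enzyme that joins long-chain fatty acids to coenzyme A, was 19.4, 19.6, 16.6 and 20.5 CPM on control diet (OE-CTD 1 to 4) and 31.5, 30.3, 27.8 and 29.4 CPM on western diet (OE-WD 1 to 4). The groups did not overlap for either gene and the OE-CTD libraries were the low ones. For Rabif they also lay below the 6 CT libraries, of which CT-CTD 3 was the lowest at 26.2 CPM. The log2 fold change of Acsl3 was 0.65 (standard error 0.152, unadjusted p = 0.000651 in edgeR) in EC-Myc OE and -0.48 in CT. The difference between these, 1.12 on the log2 scale, did not pass adjustment in edgeR (unadjusted p = 0.000187), but was called by DESeq2 and by edgeR without CT-WD 2.

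Zbtb16, Rabif and Acsl3 were among the 10 genes of smallest p that were protein coding, had a mean of at least 1 CPM and were higher on western diet by more than 1.5-fold at an unadjusted p-value under 0.05, without overlap between the groups. The others had log2 fold changes from 0.59 to 1.01 and were Uts2r, the receptor of urotensin, Npy1r, a receptor of neuropeptide Y, Shroom2, Ripor2, Tnfrsf22, 1700001O22Rik and Prickle2. Most had low levels, and Uts2r had a mean of 1.12 FPKM. The 10 chosen in the same way among lower genes had log2 fold changes from -0.94 to -0.73 and were BC048679, Rps27a, Camk1g, Rp1, Hs3st5, Slfn2, Pitx3, Kif26b, Tmem97 and Tnfrsf25. Rps27a, a ribosomal protein fused to ubiquitin, was 39.9, 74.9, 36.0 and 70.7 CPM on control diet (OE-CTD 1 to 4) and 33.8, 29.9, 31.6 and 27.6 CPM on western diet (OE-WD 1 to 4). OE-CTD 2 and OE-CTD 4 were the high libraries, while OE-CTD 1 and OE-CTD 3 lay close to OE-WD. Ribosomal protein genes have many processed copies in the genome, so the counts of Rps27a are uncertain.

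Among the other genes that the study's text names, Wnt10a, a Wnt ligand of skin and hair, was 0.192, 0.0990, 0.124 and 0.102 CPM on control diet (OE-CTD 1 to 4) and 0.350, 0.421, 0.808 and 0.482 CPM on western diet (OE-WD 1 to 4), with no overlap but only 2 to 19 counts per library. Socs3, an inhibitor of cytokine signaling, was 8.74, 9.27, 11.9 and 3.11 CPM on control diet (OE-CTD 1 to 4) and 3.46, 5.65, 3.57 and 2.77 CPM on western diet (OE-WD 1 to 4). OE-CTD 4 lay among the OE-WD libraries, and the log2 fold change of Socs3 was -1.10 (unadjusted p = 0.0274 in edgeR). Rrad, a small GTPase of muscle, was 17.7, 18.9, 14.6 and 17.2 CPM on control diet (OE-CTD 1 to 4) and 12.6, 9.99, 12.5 and 8.56 CPM on western diet (OE-WD 1 to 4), without overlap, but the log2 fold change of -0.65 had an unadjusted p of 0.186 in edgeR. Foxo1 (log2 fold change 0.12), Angptl4 (0.03) and mouse Myc (0.18) overlapped between the diets. S100a14 also overlapped. S100a3 had too few reads to be tested, with 0, 4, 1 and 3 counts in OE-CTD 1 to 4 and 4, 1, 12 and 38 counts in OE-WD 1 to 4.

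Nuclear genes of oxidative phosphorylation, which encode subunits of the respiratory chain and ATP synthase, were lower on western diet by a small amount. Of 84 tested, 82 had a negative log2 fold change, against 48.6% of all genes, and the median was -0.17. None passed adjustment in edgeR's test or differed by more than 1.5-fold, DESeq2 and limma called no member either, 27 were lower at an unadjusted p-value under 0.05, against 2.27% of all genes, and 31 had all OE-WD libraries below all OE-CTD libraries, against 2.23%. Ndufa12 (0.50, unadjusted p = 0.107 in edgeR) had them all above, and Cox4i2 (0.08) was the other positive member, both named after their values were seen. The median of the list, as log2 CPM relative to the mean of the 14 libraries, was 0.17, 0.03, -0.01 and 0.04 in OE-CTD 1 to 4 and -0.07, -0.10, -0.10 and -0.13 in OE-WD 1 to 4. The groups did not overlap, and the OE-WD libraries were the low ones. Among members named after their values were seen, Cox8a, a subunit of cytochrome c oxidase, had a log2 fold change of -0.38 (unadjusted p = 0.00527 in edgeR), and Uqcrq, a subunit of the cytochrome bc1 complex, of -0.25 (unadjusted p = 0.00899 in edgeR). With both libraries numbered 4 left out, 82 of 84 were negative, with a median of -0.16, and 13 were lower at an unadjusted p-value under 0.05, against 2.03% of all genes in that fit. In CT, where genes of up to 1000 bases also had a positive median (0.07), the median of the list was 0.13, and the difference between genotypes was not tested for the list. The 13 protein-coding genes of mitochondrial DNA had a median of -0.06, and their summed level was highest in OE-CTD 4 and OE-WD 4.

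Enzymes of mitochondrial fatty acid beta-oxidation had a median log2 fold change of -0.18, with 18 of 19 negative and 7 lower at an unadjusted p-value under 0.05 (2.27% of all genes). Ech1, also named after its values were seen, which prepares unsaturated fatty acids for oxidation, had a log2 fold change of -0.36 (standard error 0.0826, unadjusted p = 0.000551 in edgeR). Acaa2, the thiolase of the last step, was 236, 224, 233 and 245 CPM on control diet (OE-CTD 1 to 4) and 202, 190, 184 and 205 CPM on western diet (OE-WD 1 to 4). All OE-WD libraries of Acaa2 were below all OE-CTD libraries. Fabp3, the fatty acid carrier of muscle and heart, was likewise lower without overlap (-0.42, unadjusted p = 0.0322 in edgeR). Of 23 genes that respond to fatty acids through PPAR receptors 15 were negative (median -0.09), while Ucp3 (0.54), the muscle uncoupling protein, and Cpt1a (0.27), which admits fatty acids to mitochondria, were positive with overlap. The median of the beta-oxidation list was -0.21 without both libraries numbered 4, with 18 of 19 negative. By library, as log2 CPM relative to the mean of the 14 libraries, its medians overlapped between the diets. OE-CTD 4 was at 0.024, below OE-WD 1 at 0.086.

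Cytosolic ribosomal protein genes had a median log2 fold change of -0.13, with 76 of 82 negative and 20 lower without overlap (2.23% of all genes), and mitochondrial ribosomal protein genes had a median of -0.11, with 73 of 77 negative. Ribosome biogenesis and growth genes had a median of 0.01, with 17 of 30 positive. Without both libraries numbered 4, 74 of 82 cytosolic and 67 of 77 mitochondrial ribosomal protein genes were negative (medians -0.12 and -0.11). Cytosolic ribosomal protein genes and nuclear respiratory genes are short, with median lengths of 1755 and 1631 bases against 4010 bases over all genes tested. Mitochondrial ribosomal protein genes had a median length of 2255 bases. The diet difference varied with gene length. The 1100 genes of up to 1000 bases had a median log2 fold change of -0.09, and the 2398 genes over 8000 bases had 0.05. In CT the trend ran the other way, with medians of 0.07 and -0.03 for the same genes. It rested on CT-WD 2 and CT-WD 3, where genes of up to 1000 bases had library medians of 0.14 and 0.20. CT-WD 1 was at -0.03, below CT-CTD 1 to 3 at 0.03, 0.06 and 0.02. Genes of up to 1000 bases, leaving out those of mitochondrial DNA, took 3.26%, 3.06%, 3.04% and 2.99% of counts in OE-CTD 1 to 4 and 2.90%, 2.91%, 2.93% and 2.82% in OE-WD 1 to 4. All OE-WD libraries were below all OE-CTD libraries in this share (exact permutation test, 2-sided, p = 0.0286, the smallest that 70 arrangements can give, and 0.114 adjusted over 4 library measures). In bins of gene length, the 22 nuclear respiratory genes of up to 1000 bases had a median of -0.20, where all genes had -0.09. The 30 of 1001 to 2000 bases had -0.18 (all genes -0.06), and the 21 of 2001 to 4000 bases had -0.14 (all genes -0.02). The 10 of 4001 to 8000 bases had -0.15 (all genes 0.03), and the 1 over 8000 bases had -0.04 (all genes 0.05). All genes here include the members, and no difference within a bin was tested. The part of gene length in these differences was not tested. Total counts, the share of mitochondrial DNA genes and the share of the 10 most abundant genes overlapped between the diets (adjusted p = 0.771 for each, exact permutation test).

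**Figure D2:**
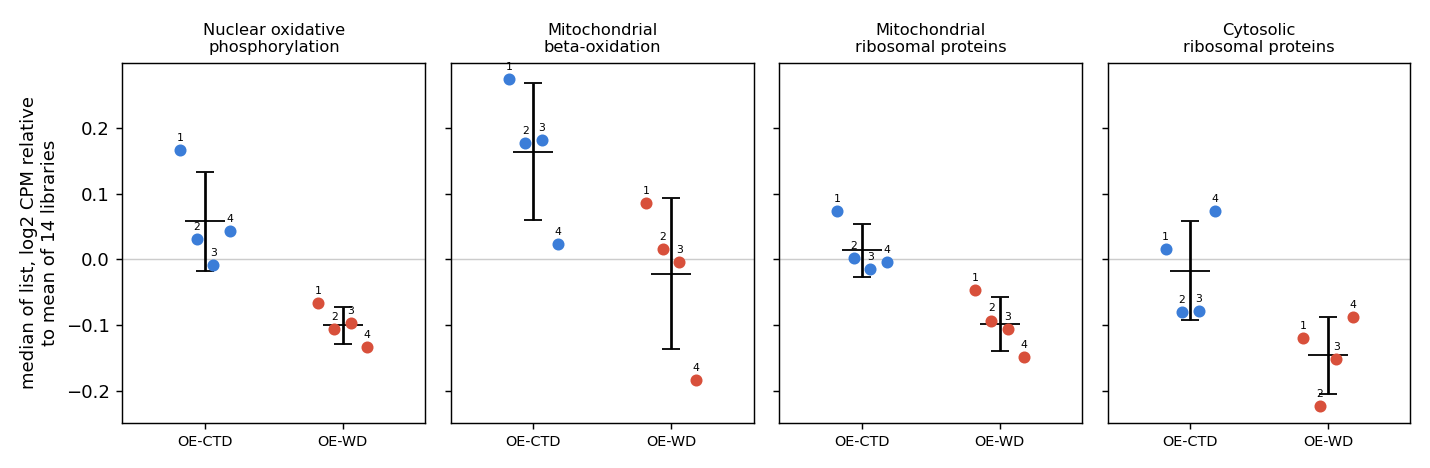
Median level of 4 gene lists in each EC-Myc OE library, as log2 CPM relative to the mean of the 14 libraries; points are libraries with their replicate number, and bars are the mean ± SD. For nuclear oxidative phosphorylation genes the OE-WD libraries lie between -0.13 and -0.07 and the OE-CTD libraries between -0.01 and 0.17.

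Contractile genes of slow fibres had a median log2 fold change of -0.19, with 15 of 16 negative and 3 lower without overlap (2.23% of all genes). The 3, named after their values were seen, were Casq2 (-0.25, unadjusted p = 0.0447 in edgeR), Myl2 (-0.20, unadjusted p = 0.0697 in edgeR) and Tnnt1 (-0.19). The most abundant members by length, Myl3 (-0.18) and Tnnc1 (-0.11), overlapped between the diets. Counts of Tnnc1 are uncertain, since Nisch lies across it on the other strand at 43.3% of its CPM. Myh7, the slow myosin heavy chain, also named after its values were seen, was the positive member (0.08, unadjusted p = 0.580 in edgeR). The median of slow fibre genes was again -0.19 without both libraries numbered 4, with 14 of 16 negative. By library, as log2 CPM relative to the mean of the 14 libraries, the medians of this list overlapped between the diets. OE-CTD 2 was at 0.045, below OE-WD 1 at 0.093. Contractile genes of fast fibres had a median of 0.03, with 10 of 16 positive. Mylk4, a myosin light chain kinase, was higher without overlap in EC-Myc OE (log2 fold change 0.33, unadjusted p = 0.00388 in edgeR) and was -0.44 in CT. The difference between the genotypes was 0.77 on the log2 scale and did not pass adjustment in edgeR (unadjusted p = 9.51e-05), but was called by DESeq2.

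Genes of endothelial cells, in which c-Myc is forced, had a median log2 fold change of 0.08, with 19 of 29 positive and none past 1.5-fold at an unadjusted p-value under 0.05. Cdh5, named after its values were seen, the endothelial cadherin whose promoter drives the transactivator, was higher without overlap (0.25, standard error 0.0830, unadjusted p = 0.00831 in edgeR), as was Eng, named likewise (0.25, unadjusted p = 0.109 in edgeR), which Fpgs overlaps on the other strand at 8.40% of its CPM. The most abundant members by length, Cav1 (0.13) and Rgcc (-0.16), overlapped between the diets. The summed level of the 29 genes was 1371, 1354, 1355 and 1238 CPM on control diet (OE-CTD 1 to 4) and 1406, 1459, 1439 and 1419 CPM on western diet (OE-WD 1 to 4). In summed level these groups did not overlap, and OE-CTD 4 was the lowest. The median log2 fold change of the list was 0.20 in CT. In EC-Myc OE its library medians overlapped, with OE-CTD 3 at 0.102 and OE-WD 1 at 0.097 (log2 CPM relative to the mean of the 14 libraries). Macrophage genes had a median of -0.02, Schwann cell genes of -0.10 and adipocyte genes of -0.08. With both libraries numbered 4 left out these were -0.06 (9 of 16 negative), -0.13 (10 of 15) and -0.18 (12 of 15).

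Genes known to respond to glucocorticoids had a median log2 fold change of 0.16, with 24 of 29 positive. Besides Zbtb16, Tsc22d3, named after its values were seen like Ucp3 and Cpt1a, was higher without overlap (0.50, unadjusted p = 0.0139 in edgeR). The summed level was 3873, 3609, 3962 and 3573 CPM on control diet (OE-CTD 1 to 4) and 5972, 3805, 4461 and 3859 CPM on western diet (OE-WD 1 to 4). OE-WD 1 was well above the rest, and OE-WD 2 and OE-WD 4 lay within the OE-CTD range. In CT the median was 0.47, and in EC-Myc OE without both libraries numbered 4 it was 0.14, with 24 of 29 positive. Immediate early genes had a median of -0.03 in EC-Myc OE and 0.79 in CT, and the difference between genotypes was not tested for these genes as a list. Egr3, one of them, was 6.59, 11.4, 8.33 and 3.78 CPM on control diet (OE-CTD 1 to 4) and 2.68, 1.82, 5.66 and 4.14 CPM on western diet (OE-WD 1 to 4), with overlap (-1.09, unadjusted p = 0.0325 in edgeR).

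Genes of epidermis and hair had a median log2 fold change of 1.53, with 18 of 18 tested positive and 7 higher by more than 1.5-fold at an unadjusted p-value under 0.05 (0.686% of all genes). The 7 were Krt10, Krt17, Sfn, Krt25, Krt71, Tchh and Wnt10a. Krt25, Krt71 and Tchh passed the filter on low counts through OE-CTD 3, OE-WD 3 and OE-WD 4, where they had most reads. Wnt10a passed it through western diet libraries, where it was highest. Their place among the 7 is therefore not independent of the filter. The summed level of the 22 listed genes was 35.7, 57.5, 62.5 and 16.5 CPM on control diet (OE-CTD 1 to 4) and 32.8, 116, 182 and 115 CPM on western diet (OE-WD 1 to 4). OE-WD 1 lay within the OE-CTD range, and OE-WD 2 to 4 were above it. CT-WD 1 reached 132 CPM, while CT-WD 2 and CT-WD 3 had 25.7 and 39.7 CPM. Lor, an epidermal envelope protein, was the most abundant by length at 6.81 FPKM. Krt71, a keratin of the hair follicle, had 0, 0, 12 and 0 counts in OE-CTD 1 to 4 and 0, 0, 57 and 316 counts in OE-WD 1 to 4. The hair genes Krt25, Krt27 and Krt35 were at 0 in the same 5 libraries. Krt5, of the basal epidermis, was at 4.41, 9.14, 11.3 and 0 CPM on control diet (OE-CTD 1 to 4) and between 3.93 (OE-WD 1) and 30.8 CPM (OE-WD 3) on western diet. Krt1, Krt14, Krt15 and Krt17 were also at 0 in OE-CTD 4. Without both libraries numbered 4 the median of the list was 1.17, with 15 of 15 tested positive, and 2 passed that level (0.606% of all genes in that fit), Krt10 (1.17, unadjusted p = 0.0290 in edgeR) and Wnt10a (1.89, unadjusted p = 0.0109 in edgeR). Krt25, Krt71 and Tchh then had too few reads to be tested. Wnt10a again passed the filter through western diet libraries, CT-WD 1, OE-WD 2 and OE-WD 3, so its call is not independent of the filter. Wnt10a, S100a14 and S100a3 belong to this list. The part of skin RNA in their values was not tested.

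**Figure D3:**
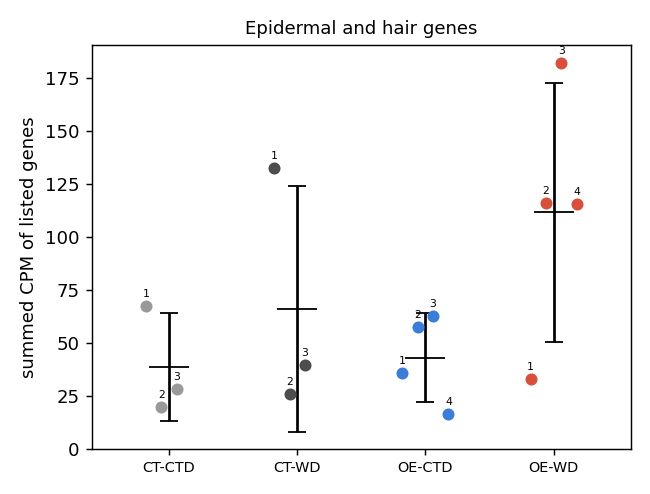
Summed level of 22 epidermal and hair genes in each of the 14 libraries, in CPM, by group; points are libraries with their replicate number, and bars are the mean ± SD. OE-WD 2 to 4 and CT-WD 1 lie between 115 and 182 CPM and the other libraries between 16.5 and 67.4 CPM.

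The test of whether the diet difference in EC-Myc OE differed from that in CT called 0 of 15458 genes at an adjusted p-value under 0.05 (0% of genes). The smallest adjusted p was 0.675 in edgeR, and 417 genes passed 1.5-fold at an unadjusted p-value under 0.05. DESeq2 called 3 genes, Acsl3, Mylk4 and, named after its values were seen, Gm11716, and limma called 0.

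Promoters were searched for motifs as a description. RefSeq sequences of GRCm38.p6, 250 bases before the start, matched 64 of the 106 genes that were higher and 60 of the 106 that were lower. The Myc E-box CACGTG was in 7.81% of the former, 6.67% of the latter and 8.32% of the 11033 promoters of all genes tested. The D-box TTATGTAA, on either strand, was in 1.56%, 1.67% and 0.471%, which is 1 promoter among the genes that were higher and 1 among those that were lower. The glucocorticoid half-site GAACA followed after 3 bases by its reverse complement was in 0 of either group and in 2 of the promoters of all genes tested (0.0181%). Zbtb16 and Rps27a had no entry among these sequences.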

How the data were processed

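The authors deposited counts of reads per Ensembl gene, without normalization, and FPKM, counts scaled by the authors to gene length and a library total. The submitters' processing notes name HISAT2 2.0.5, featureCounts 1.5.0-p3 and mm10, and no strand setting was stated, so reads of overlapping genes cannot be told apart. Partners of Rabif, Acsl3, Ripor2, Fabp3, Krt10, Ucp3 and Tnnt3 were at 1.06% to 4.43% of their CPM. Some list members had partners above their own level. Among these were Mrpl14 (Tmem63b, 167%), Rps18 (Vps52, 1269%), Nop56 (Idh3b, 1441%) and Spns2 (Mybbp1a, 245%). Such members were kept in the counts, medians and sums of the lists. Counts of 14 libraries were tested in edgeR 4.0.16 (R 4.3.3) with TMM, filterByExpr and the quasi-likelihood test, with a mean for each of 4 groups. The filter left 15458 of 54532 genes. The biological coefficient of variation was 17.0%. Genes were called at over 1.5-fold and a Benjamini-Hochberg adjusted p under 0.05. A prior count of 2 went into log2 CPM. Scripts were tested on simulated data. Replicates of a group differed by more than sampling noise (chi-square per degree of freedom 7.50 to 41.2). Named genes were those called, the 10 protein-coding genes of smallest p in each direction among those over 1.5-fold at an unadjusted p under 0.05, without overlap and with at least 1 CPM, those the study's text names, and of each of 42 lists the members past the unadjusted level and the 2 most abundant. Members and lists were chosen with earlier results of these data known. Alternatives were DESeq2 1.42.0, limma 3.58.1 on log2(FPKM + 1) and log2(FPKM + 0.1), RLE normalization, no filter, a replicate block, and leaving out libraries.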

Additional observations from a re-analysis of the deposited data

Results flagged for a closer look

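Of 244 groups of 4 libraries checked over the named genes and library measures, 23 (9.43%) held 1 library whose gap to the nearest of the other 3 was most of the range of the group, by Dixon's test. Chance gives about 1 in 20. Of these, 13 were in libraries numbered 4. In OE-CTD 3 these were Tmem97 2.60 CPM, Krt25 0.825 CPM and Krt71 0.495 CPM. In OE-CTD 4 these were Pygm 9203 CPM, Atp2a1 36091 CPM, Jph2 1376 CPM, Chrnb1 32.3 CPM, Sparc 309 CPM, Cat 155 CPM and Mylk2 1678 CPM. In OE-WD 1 these were Zbtb16 131 CPM, Myc 9.03 CPM, Slc2a4 641 CPM, Trim63 398 CPM, Asb2 1250 CPM and Hspa5 420 CPM. In OE-WD 2 this was Camk1g 0.631 CPM. In OE-WD 4 these were Slfn2 1.69 CPM, Fdft1 49.3 CPM, Aldoa 18337 CPM, Mef2c 676 CPM, Des 5899 CPM and Cox6a2 864 CPM. Counts of Fdft1 are uncertain, since the gene overlaps Ctsb on the other strand and no strand setting was stated. The level of Zbtb16 in OE-WD 1 is one of these, and its call was kept without that library. No named gene passed the interaction test at an adjusted p under 0.05 in edgeR with all 14 libraries and the filter, while DESeq2 called Acsl3 and Mylk4, and edgeR without the filter called 5 named genes.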

How the results depend on the processing

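The count of genes called in EC-Myc OE was 1, and it was 1 under RLE normalization, DESeq2, limma on log2(FPKM + 1) and on log2(FPKM + 0.1), and the fit of the 8 OE libraries alone. It was 0 with limma without a filter, where Zbtb16 had an adjusted p of 0.130, and 0 without both libraries numbered 4, an alternative chosen after seeing the data. Leaving out 1 library gave 0 to 2 genes. It was 0 without OE-CTD 1, and 2 without OE-WD 1, Zbtb16 and Rpl41. With all genes kept whatever their counts, 5 genes were called (Acsl3, Gm29216, Rabif, Rps27a and Zbtb16), 667 passed the unadjusted level and 29 the interaction. There the prior degrees of freedom of the spread were 33.3 against 5.42 with the filter. On simulated data the fit without a filter made many false calls, also in a comparison with no changed genes, and its calls were given no weight. The unadjusted count was 212. It was 47 with limma on log2(FPKM + 1), 87 on log2(FPKM + 0.1) and 50 without a filter, and 189 to 281 when 1 library was left out. Without both libraries numbered 4 it was 190, with 103 genes shared with the 212. The interaction called 3 genes with DESeq2 and 0 to 1 when 1 library was left out (Cnksr3 without CT-WD 1 and Acsl3 without CT-WD 2).

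With the replicate number as a block in the OE libraries, 15 genes were called, Acsl3, Angptl7, BC048679, Bcl6b, Cep85l, Cyp2e1, Dsp, Gm29216, Gm35048, Igfn1, Itpripl1, Krt77, Rabif, Rrad and Zbtb16. The labels do not say that a number pairs libraries, so the numbers were not taken to pair them. The correlation of deviations of same-numbered libraries was positive for each number, at 0.0711, 0.138, 0.142 and 0.338 for numbers 1 to 4. OE-CTD 1 correlated best with OE-WD 2 (0.0938), while OE-CTD 2 to 4 and OE-WD 1 to 4 each correlated best with their own number, a hint from the data and not from the design.

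Of 118 named genes tested, 41 changed sign when 1 library was left out, all with log2 fold changes within 0.32 of 0 and none called. Their ranges were Cxcl14 -0.11 to 0.0748, Dusp1 -0.18 to 0.0452, Mef2c -0.0717 to 0.12, B2m -0.12 to 0.0323, H2-D1 -0.13 to 0.0932, Tnnt3 -0.0419 to 0.14, Vegfa -0.17 to 0.0307, Hba-a1 -0.25 to 0.29, Hbb-bs -0.0977 to 0.50, Col4a2 -0.14 to 0.0861, Scd1 -0.42 to 0.18, Hmgcs1 -0.14 to 0.0365, Nr4a1 -0.32 to 0.0428, Chac1 -0.47 to 0.13, Gstm1 -0.0871 to 0.0083, Angptl4 -0.25 to 0.21, Myc -0.0277 to 0.30, Aldoa -0.18 to 0.027, Sqstm1 -0.0582 to 0.0502, Chrnb1 -0.0335 to 0.11, Des -0.19 to 0.0787, Rgs5 -0.0467 to 0.11, Sparc -0.15 to 0.15, Dcn -0.10 to 0.30, Pcna -0.0963 to 0.12, mt-Co1 -0.24 to 0.15, mt-Nd1 -0.23 to 0.13, Pdk4 -0.0528 to 0.37, Trim63 -0.0908 to 0.24, Myf6 -0.0229 to 0.18, Txnip -0.0196 to 0.36, Ccne2 -0.057 to 0.22, Hspa5 -0.0947 to 0.15, Hsp90ab1 -0.0384 to 0.033, Fmod -0.10 to 0.45, Thbs4 -0.0793 to 0.35, Col1a1 -0.13 to 0.51, Pygm -0.0211 to 0.15, Atp2a1 -0.0173 to 0.15, Pmp22 -0.38 to 0.0183 and Npm1 -0.10 to 0.0108. Cxcl14 was -0.0082 and -0.0091 with limma on log2(FPKM + 1), with or without a filter, and on log2(FPKM + 0.1), and -0.0038 and -0.0164 in the OE libraries without and with the replicate block. Hsp90ab1 was -0.0018 with the block. Without both libraries numbered 4, Sqstm1 was 0.0434, Cxcl14 -0.0462, Sparc -0.0402 and Pcna -0.0058. The cause of these changes was not tested. Counts of Ccne2 and Col4a2 are uncertain, since Ints8 and Col4a1 overlap them on the other strand at 183% and 109% of their CPM.

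The OE-WD minus OE-CTD difference in total counts, 768061, was -847487 without both libraries numbered 4 and -125448 to 2019830 without 1 library. When 1 library was left out, the difference in mitochondrial share was -1.12 to 0.422 percentage points and the share of the 10 most abundant genes -0.670 to 1.47.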

Other observations

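In EC-Myc OE muscle targets of Srebp1 had a median log2 fold change of 0.10 with 13 of 17 positive, against -0.45 in CT, and targets of Srebp2 in cholesterol synthesis 0.07 with 14 of 23 positive. Library medians of the Srebp1 list overlapped between the diets in both genotypes, and the difference between genotypes was not tested for the list. Tendon genes had a median of 0.26 and collagen genes 0.11, and in both OE-WD 2 was the highest library, with summed levels of 1120 and 3097 CPM. Genes of the Myc, Max and Mxd network had a median of 0.06, and Mycn was -1.11 (unadjusted p = 0.0160 in edgeR) with overlap between the groups.

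The median log2 fold change of all genes was 0.0048. Among metabolic lists the medians were for fatty acid uptake and activation genes -0.064 (6 of 22 positive), insulin signaling genes -0.0047 (16 of 32 positive), glycolysis and glycogen genes 0.0027 (15 of 29 positive) and atrophy and autophagy genes 0.037 (15 of 25 positive). Lists of fibre function gave for calcium handling genes 0.028 (12 of 21 positive), neuromuscular junction genes -0.02 (9 of 18 positive), myogenic and satellite cell genes 0.0039 (10 of 20 positive) and giant sarcomere and nuclear envelope genes 0.051 (14 of 20 positive). Lists of vessels, blood and matrix gave for angiogenic ligands -0.062 (6 of 16 positive), pericyte and smooth muscle genes 0.05 (7 of 12 positive), leukocyte adhesion and cytokine genes 0.074 (12 of 19 positive), MHC and interferon genes -0.027 (9 of 23 positive), red blood cell genes 0.087 (4 of 6 positive) and matrix remodelling genes 0.06 (21 of 33 positive). The remaining lists gave for proliferation genes 0.17 (13 of 17 positive), unfolded protein response genes -0.0054 (11 of 23 positive), heat shock chaperones -0.017 (10 of 22 positive), metallothionein and Nrf2 target genes 0.074 (11 of 19 positive), S100 genes -0.091 (4 of 9 positive), clock genes of the Dbp phase 0.077 (7 of 13 positive) and clock genes of the Bmal1 phase -0.021 (2 of 7 positive).

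With both libraries numbered 4 left out, a comparison chosen after the data were seen, several of these medians differed by more than 1.5 times or in sign. Collagen genes had 0.05 (21 of 40 positive), targets of Srebp1 0.05 (11 of 17) and targets of Srebp2 0.04 (15 of 23), while tendon genes had 0.29 (10 of 13). Red blood cell genes had 0.38 (4 of 6 positive) and MHC and interferon genes -0.11 (16 of 22 negative). Medians of the other sign were those of neuromuscular junction genes (0.0057), myogenic and satellite cell genes (-0.0048), glycolysis and glycogen genes (-0.0044) and unfolded protein response genes (0.017). Immediate early genes had -0.06, insulin signaling genes -0.02, clock genes of the Dbp phase 0.04 and of the Bmal1 phase -0.01, pericyte and smooth muscle genes 0.01, matrix remodelling genes 0.0039, ribosome biogenesis genes 0.04, heat shock chaperones -0.0085 and metallothionein and Nrf2 target genes 0.04.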
